A study of Mus musculus with 8 samples.

Results

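Immunoglobulin variable genes were examined in RNA from mouse knee cartilage, before and after joint surgery. They are the germline segments that encode the antigen-binding ends of antibody chains. Members were the genes of the deposited table whose symbols mark them as heavy (Ighv), kappa (Igkv) or lambda (Iglv) variable genes, that are not annotated as pseudogenes, and whose mean estimated count over the 8 libraries was 10 or more. This left 106 genes of the 50462 in the table, and of 218 variable genes that are not pseudogenes. They were 51 of 115 heavy genes, 52 of 100 kappa genes and 3 of 3 lambda genes. They were thus chosen by a measured value, the mean count over both groups, and a gene that is high in a single group could pass.

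The data were 8 RNA-seq libraries of medial knee cartilage caps, each from a separate male C57Bl/6J mouse labelled as a wild-type control. The 4 naive mice were untreated and killed at 11 weeks of age (day 0). The 4 DMM mice had surgery at 11 weeks of age, in which the ligament holding the medial meniscus of the left knee was cut under isoflurane with buprenorphine, and were killed on day 42, at 17 weeks of age. DMM stands for destabilisation of the medial meniscus and models osteoarthritis after joint injury. Sham-operated mice were not analysed here, and the effects of surgery, of its drugs and of 6 weeks of ageing cannot be told apart. Total estimated counts ran from 12479443 to 16548002 per library, and the labels name no batch.

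Each developing B cell joins a variable gene to short D and J segments in the heavy chain, or to a J segment in a light chain, with enzymes that include Rag1 and Rag2. The joined exon is spliced to a constant gene, which sets the antibody class. A B cell therefore expresses a single heavy and, as a rule, a single light variable gene, and a clone of plasma cells can supply much of the RNA of 1 variable gene. Chondrocytes, the cell type named in the labels, do not rearrange these genes, whereas bone marrow is rich in B cells of all stages.

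The tissue label was checked against marker genes. All 8 cartilage markers had counts, and 4 of them were called higher and 0 lower in DMM libraries (a gene was called where it moved at least 1.5-fold with a DESeq2 adjusted p no higher than 0.05). Acan, the main proteoglycan of cartilage, was one of the 4, with a mean of 6962 normalised counts over the naive and of 14809 over the DMM libraries, where normalised counts are counts divided by DESeq2's median-of-ratios size factors. The markers Prg4, Col9a1 and Matn3 had log2 fold changes of -0.54, -0.36 and -0.29 and were not called (DESeq2 adjusted p between 0.407 and 0.873). Blood cell transcripts were abundant beside them. The 12 neutrophil lineage genes summed to between 9089 and 12660 CPM (counts scaled to the library total) in the naive and between 4280 and 9002 in the DMM group, with 11 of 12 called lower, and 6 of the 7 erythroid genes in the table were called lower. Over all 17760 genes with an adjusted p, 7.75% were called higher and 5.92% lower. None of these markers was at 0 in all libraries. In such bulk samples, fewer cells of a type and less RNA per cell cannot be told apart.

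What the counts can tell is set by where the germline sequence ends. The last 30 bases of the GENCODE vM21 transcripts (GRCm38, 5′ to 3′ in coding sense) are given here for members on which the results turn, chosen for their change or for holding a large share of a library. Capitals mark the codon of the conserved cysteine that opens the antigen-binding loop known as CDR3. It was found by the letters TANTGT or the letters TANTGC, or likewise by the letters TTNTGT or the letters TTNTGC, as the first match within the last 24 bases of heavy or 36 bases of light chain transcripts.
Ighv1-22: gaggattctgcagtctattacTGTgcaaga
Ighv1-55: gaggactctgcggtctattacTGTgcaaga
Ighv1-64: gaggactctgcggtctattacTGTgcaaga
Ighv1-80: gaggactctgcggtctatttcTGTgcaaga
Ighv1-81: gaggactctgcggtctatttcTGTgcaaga
Ighv7-1: actgccatttattacTGTgcaagagatgca
Igkv12-44: ttacTGTcaacatcattatggtactcctcc
Igkv12-46: ttacTGTcaacatttttggggtactcctcc
Igkv10-96: ctttTGCcaacagggtaatacgcttcctcc
Igkv1-110: tttcTGCtctcaaagtacacatgttcctcc
Igkv1-135: ttatTGCtggcaaggtacacattttcctca
Igkv15-103: ctacTGTcaacagggtcaaagttatcctct
Igkv6-13: tttcTGCcagcaatatagcagctatcctct
Iglv1: ttcTGTgctctatggtacagcaaccatttc
Iglv2: ttcTGTgctctatggtacagcacccatttc

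A median of 6 germline bases followed the codon in heavy members and 23 in kappa members. In a heavy chain the rest of the loop comes from D and J segments and from bases added at the joins, and a kappa gene brings most of its loop with it. All 20 D segments and 14 J segments in the table (4 heavy, 5 kappa and 5 lambda) were listed at 0 in all libraries, and the D segments are annotated with 10 to 29 bases. The values thus count variable gene sequence and hold nothing on the rearranged loop. Whether the counted transcripts were rearranged was not tested. The motif was found in 51 of 51 heavy, 51 of 52 kappa and 3 of 3 lambda members, in 57 of 64 heavy and 47 of 48 kappa genes outside the count minimum, and in 43 of 70 heavy and 41 of 60 kappa pseudogenes. On the opposite strand it was found in 1 heavy and 18 kappa members. The search was by letters, without a check of the reading frame. In Iglv3 only 3 bases followed the match, compared with 24 in Iglv1 and Iglv2, and this match was not shown to be the cysteine codon.

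Relatives end alike. The 51 heavy members had 35 distinct windows, and the window of Ighv1-55 and Ighv1-64 was shared by 7 members. That of Ighv1-80 and Ighv1-81 was shared by 5. The 51 kappa windows were 47 distinct ones. Over whole transcripts, a median of 46.4% of the 31-base words of heavy members and 52.8% of those of kappa members also occur in other genes, and 50 members share 50% or more. Kallisto divides such reads between genes, so the counts of close relatives are less certain. Ighv1-72 is the most affected of the genes named here, with 98.1% of its words in other genes, whereas Igkv15-103 and Iglv3 share none.

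Heavy and kappa variable transcripts were about 2-fold higher after DMM, and lambda transcripts overlapped between the groups. Summed heavy members stood at 83.0, 50.7, 90.3 and 72.0 CPM in naive 1 to 4 and at 161.4, 208.4, 96.7 and 113.2 in DMM 1 to 4. Summed kappa members stood at 58.1, 36.5, 64.9 and 76.5 in naive and at 149.7, 178.7, 96.9 and 122.3 in DMM libraries. Lambda members stood at 8.87, 7.84, 10.9 and 8.82 in naive and at 13.1, 16.1, 10.0 and 11.7 in DMM libraries. Every DMM library lay above every naive library for heavy and for kappa members, with the smallest gap between naive 3 and DMM 3 in the heavy chain. For lambda members, naive 3 lay above DMM 3. The ratio of the group means was 1.96 for heavy (74.0 ± 17.3 against 144.9 ± 50.5), 2.32 for kappa (59.0 ± 16.8 against 136.9 ± 35.2) and 1.40 for lambda members (9.12 ± 1.31 against 12.7 ± 2.58 CPM; SD, n = 4 per group). These sums are over chosen genes and were not tested. With size factors in place of total counts the ratios were 1.78, 2.11 and 1.26.

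**Figure D1:**
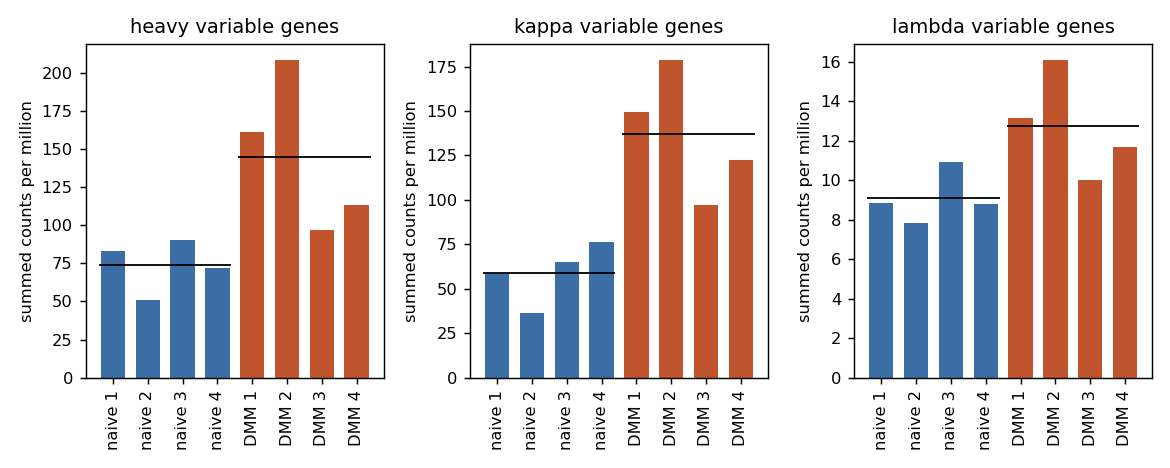
Summed CPM (y axis, from 0, with its own scale in each panel) of the 51 heavy, 52 kappa and 3 lambda members in each library (bars, blue naive, orange DMM), with a line at each group mean. DMM 2 is the highest library in all panels, at 208.4, 178.7 and 16.1.

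The members made up 0.00950% to 0.0166% of all counts in naive and 0.0204% to 0.0403% in DMM libraries, from 639.8 heavy, 460.3 kappa and 99 lambda estimated counts in naive 2 up to 2616 heavy, 2427 kappa and 213.0 lambda counts in DMM 1. Few counts per gene therefore stood behind each value, with a mean per member between 10.1 and 113.7. Of the light chain variable counts, kappa members held 86.8%, 82.3%, 85.6% and 89.7% in naive 1 to 4 and 91.9%, 91.7%, 90.6% and 91.3% in DMM 1 to 4. The groups did not overlap in this share, and naive libraries were spread over a wider range (86.1% ± 3.05 against 91.4% ± 0.583; SD, n = 4). The ratio of heavy to light chain variable counts ran from 0.844 to 1.24 in naive and from 0.845 to 1.07 in DMM libraries and overlapped.

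Gene by gene, 33 members were called higher and 1 lower in DMM libraries by DESeq2 (adjusted p of 0.05 or less over all genes and a change of 1.5-fold or more), among 89 members that received an adjusted p. Of all 17760 genes with an adjusted p, 7.75% were called higher and 5.92% lower, 13.7% in all. The called members were 15 higher and 1 lower of 45 heavy genes, 18 higher and 0 lower of 41 kappa genes, and 0 of 3 lambda genes, where 51 members of the 3 classes passed an unadjusted p of 0.05 (0 of them lambda genes, of which edgeR and limma-voom also called 0). The log2 fold change was above 0 for 91 and below 0 for 15 of the 106 members, with a median of 1.22, compared with -0.016 over all genes tested. By class the median was 0.997 in heavy, 1.34 in kappa and 0.26 in lambda members. In normalised counts, the groups were without overlap for 23 members that were higher and 1 that was lower after DMM, where 11.6% and 9.91% of all 18510 genes with a mean count of 10 or more did so.

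These counts of calls depended on the libraries in the fit, and so did the number of members that received an adjusted p. Without DMM 2 the members called higher fell to 13, with 35 members given an adjusted p, compared with 89 in the full fit. Members called higher came to 20 without DMM 1 (68 with an adjusted p) and to 21 each without DMM 3 (45) and without naive 2 (63). A member without an adjusted p cannot be called, so a lost call need not be a lost change. Between 26 and 31 members were called in either direction in the other 4 such fits. edgeR's quasi-likelihood test called 21 higher and 1 lower, where 6.89% of all genes it tested were called higher, and all 22 were among the calls of DESeq2. DMM 2 was the highest library for 45 of the 106 members and DMM 1 for 27, and in all 85 members had their highest value in a DMM library. Of the 34 called members, 20 did not overlap between groups and 12 kept the call when any library was left out, which also takes an adjusted p in each such fit. Scaling by the total count moved the median log2 fold change of all genes from -0.016 to 0.14 and the calls to 44 higher and 1 lower. Under that scaling 80.6% of all calls were higher, compared with 56.7% with size factors.

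**Figure D2:**
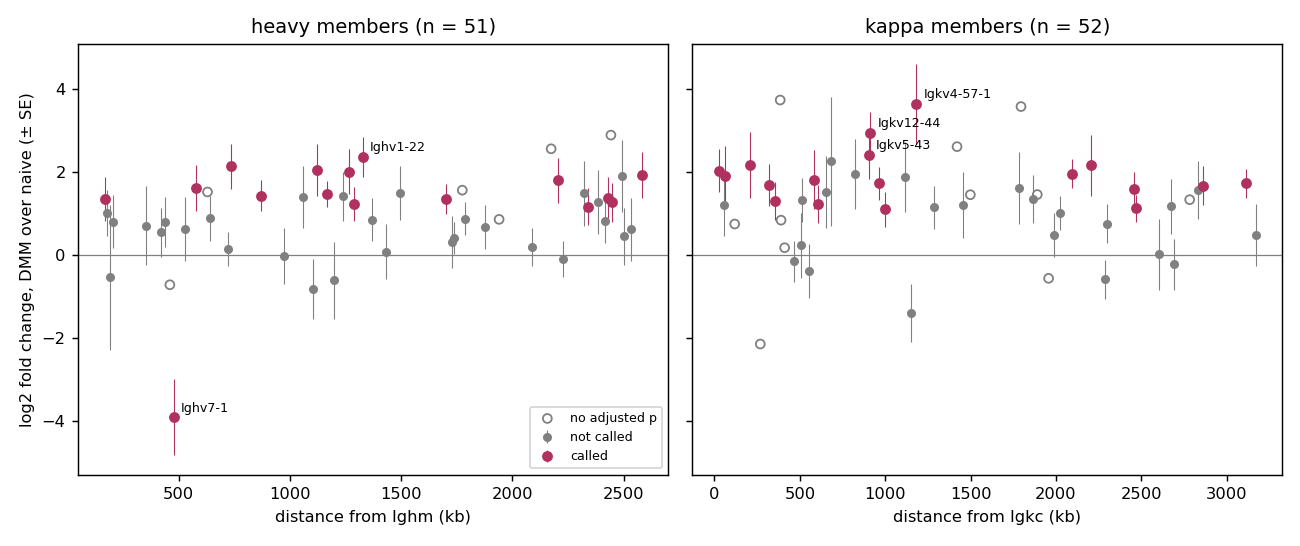
Log2 fold change, DMM over naive, with its standard error (y axis) against the distance in kb from the lower coordinate of Ighm or Igkc (x axis) for heavy and kappa members. Called members (red) are scattered along both loci, and Ighv7-1 at -3.92 is the only one called lower.

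Among heavy genes, Ighv1-22 and Ighv1-9 of the large Ighv1 family had the smallest adjusted p. Ighv1-22 (chromosome 12, 114746273 to 114746706) stood at 9.67, 10.6, 10.7 and 12.5 normalised counts in naive 1 to 4 and at 52.2, 107.5, 22.2 and 42.4 in DMM 1 to 4. The naive libraries were tightly grouped and all lay below DMM 3, the lowest DMM library. Its log2 fold change was 2.36 (SE 0.48, DESeq2 adjusted p = 3.25e-05). Ighv1-9 (chromosome 12, 114583569 to 114584002) stood at 29.0, 22.6, 21.4 and 21.5 in naive and at 66.3, 91.4, 60.9 and 42.4 in DMM libraries, again without overlap, and rose by 1.45 on the log2 scale (SE 0.31, DESeq2 adjusted p = 9.92e-05). Only 22.0% of its words occur in other genes. Both kept the call when any library was left out.

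Ighv7-1 and Ighv7-3 are members of the small Ighv7 family that changed in opposite directions. Ighv7-3 (chromosome 12, 114153180 to 114153644) stood at 11.4, 1.33, 3.21 and 21.5 normalised counts in naive and at 52.2, 33.3, 30.5 and 49.6 in DMM libraries. It rose by 2.12 on the log2 scale (SE 0.55, DESeq2 adjusted p = 0.00147). Ighv7-1 (chromosome 12, 113896408 to 113896946) stood at 95.9, 13.3, 45.0 and 182.5 in naive and at 0.83, 8.60, 4.94 and 8.12 in DMM libraries. Its lowest naive value, in naive 2, was above the highest DMM value, and naive 4 alone held 50.8% of the sum over the 8 libraries. The log2 fold change was -3.92 (SE 0.92, DESeq2 adjusted p = 0.000345; edgeR adjusted p = 0.00963). It lay between -4.29 and -3.22 when a library was left out and was called each time, naive 4 included, and only 6.01% of its words occur in other genes.

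The most abundant heavy members per kilobase of transcript were Ighv1-81, Ighv1-80, Ighv1-55, Ighv1-64, Ighv1-72 and Ighv1-82, and 1 of these 6 was called. Ighv1-72 (chromosome 12, 115757984 to 115758461) had 42.6 ± 29.7 normalised counts in the naive and 95.8 ± 42.8 in the DMM group (SD, n = 4) and a change of 1.16 on the log2 scale (SE 0.43, DESeq2 adjusted p = 0.0373). Its groups overlapped, it was called in 3 of 8 fits that left out a library, and nearly all of its words are shared, as given above. Ighv1-80 stood at 54.5, 27.9, 52.4 and 6.80 in naive and at 345.0, 86.0, 42.0 and 56.0 in DMM libraries, so that DMM 1 alone was far above the rest. Its log2 fold change was 1.90 (SE 0.88, DESeq2 adjusted p = 0.104) and came to 0.78 when DMM 1 was left out.

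Ighv1-81, the heavy member with the highest level, stood at 37.8, 22.6, 112.4 and 161.0 normalised counts in naive and at 58.9, 111.8, 193.5 and 88.4 in DMM libraries. Libraries of the same group differed more than the groups did, with a change of 0.44 on the log2 scale (SE 0.69, DESeq2 adjusted p = 0.722). Ighv1-64 likewise had its highest value in a naive library, 134.9 in naive 4, and its log2 fold change of 0.17 (DESeq2 adjusted p = 0.841) turned negative when naive 1, naive 2 or DMM 1 was left out. For Ighv1-55 and Ighv1-82 the log2 fold changes were 0.86 and 0.61 (DESeq2 adjusted p = 0.0991 and 0.644).

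Kappa genes held the member with the smallest adjusted p. Igkv12-44 (chromosome 6, 69814631 to 69815154) stood at 8.79, 21.3, 16.1 and 6.80 normalised counts in naive 1 to 4 and at 195.7, 84.9, 39.5 and 79.4 in DMM 1 to 4. All DMM libraries were above all naive libraries, although they differed among themselves by several fold. The log2 fold change was 2.94 (SE 0.49, DESeq2 adjusted p = 1.99e-07) and lay between 2.38 and 3.25 when a library was left out. Its relative Igkv12-46 (chromosome 6, 69764523 to 69765022) stood at 22.9, 27.9, 8.56 and 19.3 in naive and at 107.8, 51.6, 44.5 and 53.2 in DMM libraries, with a change of 1.72 on the log2 scale (SE 0.40, DESeq2 adjusted p = 0.00036). These relatives share 31.4% of the words of Igkv12-46, and their windows above differ in the middle of the loop.

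Igkv10-96 (chromosome 6, 68631963 to 68632442) had the highest level per kilobase of all members. It stood at 58.0, 23.9, 61.0 and 32.9 normalised counts in naive and at 161.7, 285.9, 113.6 and 127.3 in DMM libraries. The groups lay well apart, and the log2 fold change was 1.95 (SE 0.35, DESeq2 adjusted p = 1.68e-06). It was the most abundant kappa member of DMM 2 and DMM 3, with 11.9% and 8.63% of their kappa variable counts.

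Of the Igkv1 family, Igkv1-135 and Igkv1-110 rose while Igkv1-117 was not called. Igkv1-135 (chromosome 6, 67609713 to 67610508) stood at 36.1, 20.0, 26.8 and 21.5 normalised counts in naive and at 95.4, 107.5, 40.3 and 103.8 in DMM libraries, a change of 1.72 on the log2 scale (SE 0.35, DESeq2 adjusted p = 3.7e-05). Igkv1-110 (chromosome 6, 68270485 to 68271267) stood at 21.1, 33.3, 68.5 and 77.1 in naive and at 92.9, 230.0, 89.7 and 181.4 in DMM libraries, a change of 1.57 on the log2 scale (SE 0.41, DESeq2 adjusted p = 0.00149). Neither overlapped between groups. Igkv1-117, which shares 62.6% of its words with Igkv1-110, stood at 23.7, 14.6, 110.2 and 179.1 in naive and at 48.1, 152.6, 37.0 and 91.2 in DMM libraries. Its values crossed freely between groups, with a change of 0.0038 on the log2 scale (SE 0.86), which edgeR gave as -0.0072.

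Igkv5-43 and Igkv3-2 were the other kappa members among the 10 increases of smallest adjusted p. Igkv5-43 (chromosome 6, 69823355 to 69823943) ran from 0 to 18.1 normalised counts in naive and from 31.3 to 75.8 in DMM libraries, with a change of 2.41 on the log2 scale (SE 0.58, DESeq2 adjusted p = 0.00052). Igkv3-2 (chromosome 6, 70698449 to 70699067), the kappa member nearest to the constant gene, ran from 2.27 to 12.0 in naive and from 19.8 to 55.9 in DMM libraries, with a change of 2.02 on the log2 scale (SE 0.51, DESeq2 adjusted p = 0.00109). Without single libraries they were called in 7 and 6 of 8 fits. The further 21 members called higher had log2 fold changes between 1.09 (Igkv5-48) and 2.15 (Igkv3-12) and adjusted p between 0.00183 (Ighv3-6) and 0.0487 (Ighv2-2).

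Some genes were high in 1 library alone. In 8 members a single library held over 50% of the normalised counts of all 8, and 6 of them are given here, among them Ighv7-1 and Ighv1-80 above. Igkv6-13 stood at 3.52, 2.66, 1.07 and 168.9 in naive and at 14.9, 9.67, 4.12 and 10.8 in DMM libraries. Naive 4 thus held 78.3% of its sum, and DESeq2's outlier filter withheld a p for it. Its log2 fold change of -2.16 became 2.01 without naive 4. Ighv2-3 had 64.2 in naive 1 and at most 23.6 elsewhere, and its log2 fold change of -0.54 (DESeq2 adjusted p = 0.875) became 2.16 without naive 1.

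Igkv4-57-1 was above the naive range in 3 DMM libraries, with its highest value in DMM 3, and Igkv4-55 was above it in DMM 1 alone. Igkv4-57-1 stood at 2.64, 0, 3.21 and 2.27 normalised counts in naive and at 22.4, 18.3, 62.6 and 0.903 in DMM libraries. It was called (log2 fold change 3.64, SE 0.96, DESeq2 adjusted p = 0.00183), yet DMM 4 lay within the naive range and the call was kept in 3 of the 8 fits that left out a library, the only 3 that gave it an adjusted p. Igkv4-55 had 58.1 in DMM 1 and at most 14.1 elsewhere, with a change of 1.87 on the log2 scale (SE 0.85, DESeq2 adjusted p = 0.0977).

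**Figure D3:**
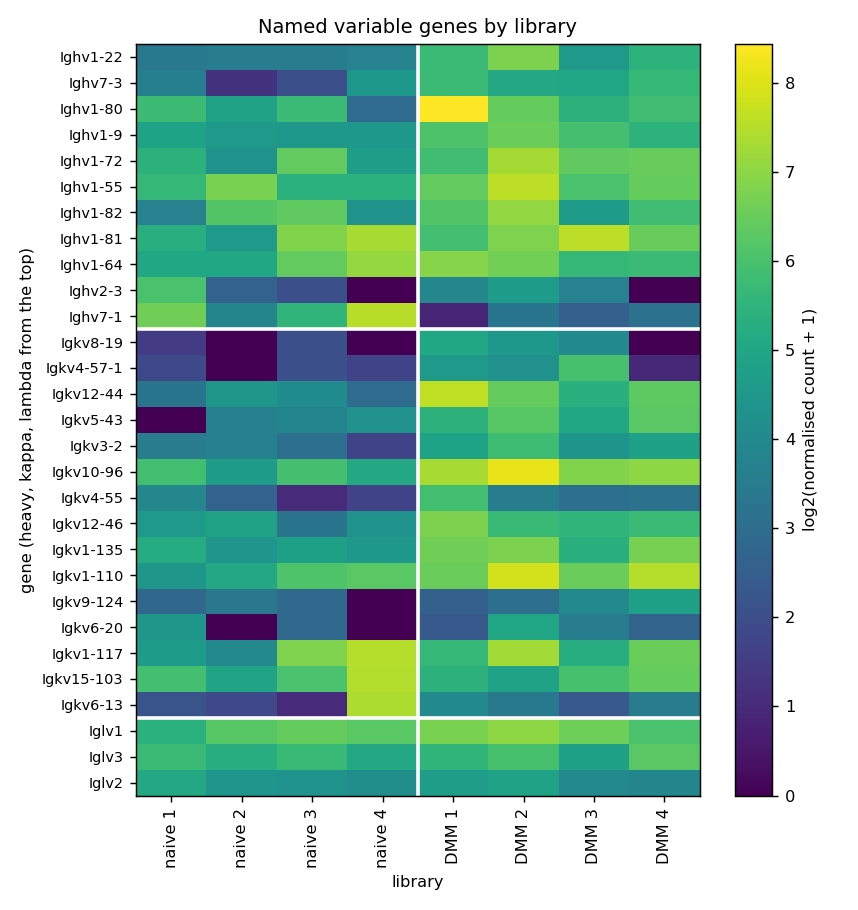
Normalised counts, as log2(normalised count + 1) in colour, of the 29 named members (rows, ordered within heavy, kappa and lambda by log2 fold change) in the 8 libraries (columns). Igkv6-13 is bright in naive 4 only (168.9), and Ighv1-80 is brightest in DMM 1 (345.0).

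All 3 lambda members passed the count minimum, and none was called. Iglv1 (chromosome 16, 19085017 to 19085500) stood at 40.5, 74.5, 86.7 and 77.1 normalised counts in naive and at 106.2, 125.8, 94.7 and 63.2 in DMM libraries, with a change of 0.49 on the log2 scale (SE 0.29, DESeq2 adjusted p = 0.229). Iglv3 (19241207 to 19241690) stood at 52.8, 37.3, 51.4 and 32.9 in naive and at 44.8, 62.3, 27.2 and 76.7 in DMM libraries, with a change of 0.26 on the log2 scale (SE 0.34, DESeq2 adjusted p = 0.655). Both overlapped between groups. Iglv2 (19260401 to 19260859), which shares 36.5% of its words with Iglv1, was the lowest, with 22.4 ± 7.44 in the naive and 20.5 ± 7.38 in the DMM group (SD, n = 4). Iglv1 held the largest share of lambda counts in 6 of the 8 libraries, and Iglv3 in naive 1 and DMM 4.

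Variable genes are grouped in families of related sequence, which differ in size. Ighv1 was the largest, with 30 of the 51 heavy members, and held 62.5% ± 8.78 of heavy variable counts in the naive and 71.8% ± 5.65 in the DMM group (SD, n = 4). These shares overlapped between groups, with 72.6% in naive 2 and 64.5% in DMM 4. The summed normalised counts of Ighv1 were 608.5, 616.0, 835.9 and 637.2 in naive and 1552, 2037, 1031 and 953.1 in DMM libraries, a ratio of means of 2.07 without overlap. Of its 30 members, 26 received an adjusted p, 11 were called higher and 0 lower, and 29 had a log2 fold change above 0. The single member of Ighv3, Ighv3-6, was also called, with a ratio of 2.70.

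Among kappa families, the summed normalised counts of Igkv12, Igkv13, Igkv10, Igkv5, Igkv3 and Igkv14 did not overlap between groups. Their ratios of means were 4.62, 4.57, 3.45, 3.37, 3.08 and 2.66, and 2 of 3, 0 of 2, 1 of 2, 2 of 3, 3 of 5 and 2 of 3 members were called higher. Only 2 of 3 Igkv12, 1 of 2 Igkv13 and 4 of 5 Igkv3 members received an adjusted p, without which no call is possible. Igkv1, the most abundant kappa family, had a ratio of 2.03 and overlapped, as did the larger families Igkv4 (8 members, 1.85), Igkv6 (7 members, 1.38) and Igkv8 (7 members, 2.02). The ratio was below 1 for Ighv7 (0.503) and Igkv15 (0.659), both with overlap, under size factors and under total counts alike. For Ighv6 it was 0.996 and turned to 1.06 under total counts. Igkv15 is a single gene, Igkv15-103, which stood at 59.8, 29.3, 64.2 and 176.9 in naive and at 41.5, 27.9, 62.6 and 85.7 in DMM libraries and was not called (log2 fold change -0.60, SE 0.48, DESeq2 adjusted p = 0.412).

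Along the chromosome, heavy members span 113588267 to 116000461 of chromosome 12 and kappa members 67555497 to 70699067 of chromosome 6 (GRCm38), from 170 to 2581 kb from Ighm and from 27.4 to 3170 kb from Igkc. Called members were spread over both loci. With members split into 3 stretches by distance from the constant gene, 4, 6 and 5 heavy members of 17 each were called higher from the nearest to the farthest stretch. The same split of kappa members gave 7 of 18, 5 of 17 and 6 of 17. These numbers of members include those without an adjusted p. The stretches held 26.4%, 33.5% and 40.1% of the heavy level, and 26.4%, 25.5% and 48.1% of the kappa level. Across members, Spearman's rho of distance with log2 fold change was 0.24 in 51 heavy and -0.11 in 52 kappa genes, and with level 0.22 and 0.15. The genes share libraries and reads, and these values are descriptions.

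How evenly members were used was described with the effective number, the exponential of the Shannon entropy of the counts of a class, which equals the number of members if all are used alike. For heavy members it was 37.2, 33.6, 34.6 and 20.8 in naive 1 to 4 and 34.5, 40.2, 32.5 and 38.8 in DMM 1 to 4. For kappa members it was 31.3, 35.9, 31.04 and 18.7 in naive and 36.8, 34.4, 38.3 and 31.9 in DMM libraries. The groups overlapped in both classes, and naive 4 was the lowest library in both. Thinning each library to the smallest class sum after rounding the count of each gene (638 heavy and 460 kappa counts) left naive 4 the lowest, at 20.3 and 18.2.

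In naive 4 the 5 most abundant members held 54.5% of heavy and 59.1% of kappa counts, compared with 25.4% to 34.5% and 26.4% to 37.0% in the other 7 libraries. Its leading heavy genes were Ighv7-1 with 17.6%, Ighv1-81 with 15.5% and Ighv1-64 with 13.03%. Its leading kappa genes were Igkv1-117 with 16.2%, Igkv15-103 with 16.1% and Igkv6-13 with 15.3%. In the DMM group, Ighv1-80 held 15.9% of heavy counts in DMM 1 and Ighv1-81 held 14.7% in DMM 3, whereas no heavy member held over 6.90% in DMM 2 or DMM 4. Which gene led differed between mice: Ighv7-1 led in naive 1 and naive 4, Ighv1-55 in naive 2 and DMM 2, Ighv1-81 in naive 3, DMM 3 and DMM 4, and Ighv1-80 in DMM 1.

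**Figure D4:**
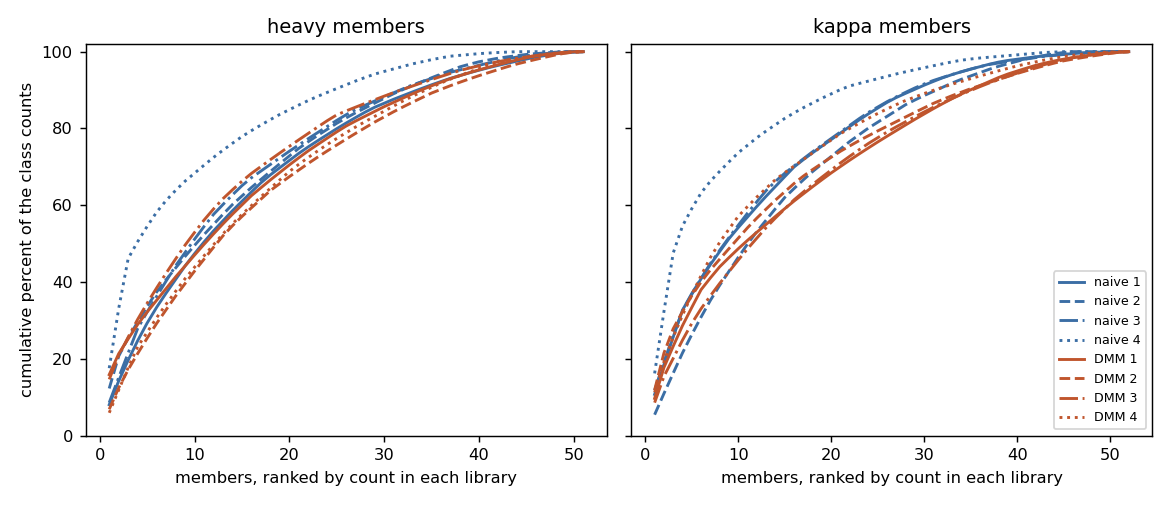
Cumulative percent of heavy (left) and kappa (right) variable counts (y axis) over members ranked by count within each library (x axis), with 1 line per library (blue naive, orange DMM). The dotted blue line of naive 4 rises fastest in both panels, with 54.5% and 59.1% in the first 5 members.

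Constant genes carry the other end of the same transcripts. Of 12 listed, 11 received an adjusted p, and 3 were called higher and 0 lower, beside 7.75% and 5.92% of all genes. Igha, the constant gene of IgA, the antibody class of mucosal surfaces (chromosome 12, 113254830 to 113260236), stood at 1470.4, 1157, 1012 and 923.0 normalised counts in naive and at 4494, 6808, 3006 and 4046 in DMM libraries. The groups lay far apart, and it rose by 2.01 on the log2 scale (SE 0.23, DESeq2 adjusted p = 1.56e-15). Igkc, the kappa constant gene (chromosome 6, 70726435 to 70726966), had 2392 ± 405 in the naive and 5351 ± 1637 in the DMM group without overlap (SD, n = 4), and rose by 1.16 (SE 0.20, DESeq2 adjusted p = 7.58e-07). Iglc1 rose by 0.79 (SE 0.24, DESeq2 adjusted p = 0.00704), with 99.0 ± 13.2 and 170.6 ± 49.9 (SD, n = 4) and overlap, whereas Iglc2 and Iglc3 changed by 0.57 and 0.63 (DESeq2 adjusted p = 0.0934 and 0.108).

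The IgM constant gene Ighm, used by B cells before class switching, was not called, with 3444 ± 430 normalised counts in the naive and 4432 ± 2195 in the DMM group (SD, n = 4; log2 fold change 0.36, DESeq2 adjusted p = 0.544). Its DMM libraries fell apart into DMM 1 and DMM 2 at 6262 and 6395 and DMM 3 and DMM 4 at 2707 and 2366. Ighd, expressed beside Ighm on mature B cells, changed by 0.52 (DESeq2 adjusted p = 0.191). The IgG genes Ighg1, Ighg2b, Ighg2c and Ighg3 gave log2 fold changes of 0.29, -0.39, 0.04 and 2.81 with DESeq2 adjusted p between 0.157 and 0.972. Ighg3 ran from 1.81 to 567.2 within the DMM group, and its value in DMM 4 was below those of all naive libraries. Ighe, the IgE gene, had at most 5.28 and no adjusted p.

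Per kilobase of annotated transcript, variable counts over constant counts were 0.634 to 0.806 in naive and 0.774 to 0.828 in DMM libraries for the heavy chain, 0.478 to 0.616 and 0.448 to 0.543 for kappa, and 0.462 to 0.512 and 0.341 to 0.491 for lambda. The groups overlapped in all 3 chains. These ratios leave out variable genes under the count minimum, and the constant gene lengths average over secreted and membrane forms.

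**Figure D5:**
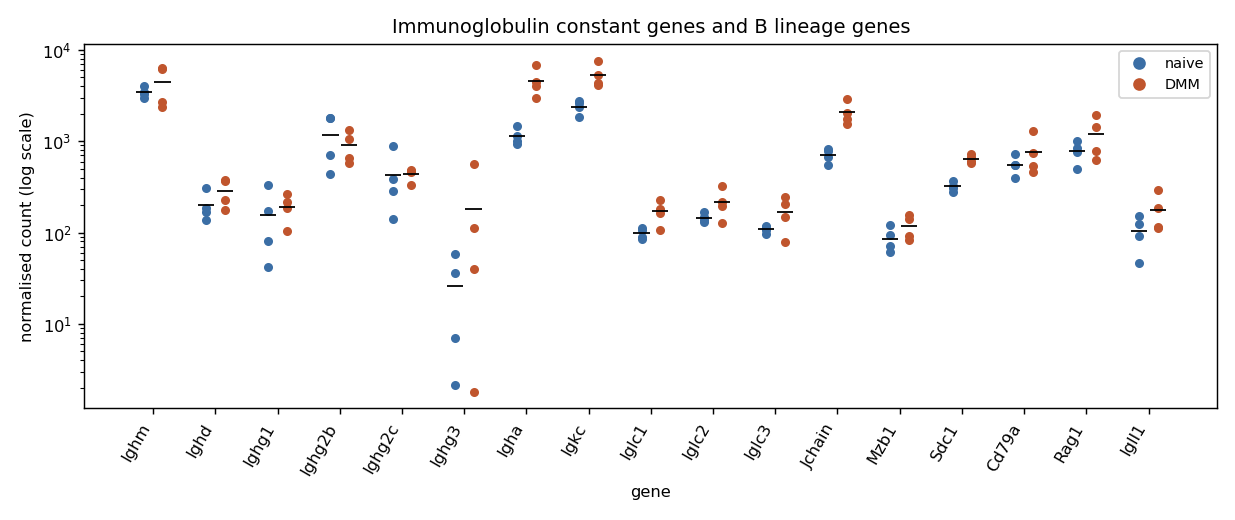
Normalised counts (y axis, log scale) of constant genes and B lineage genes (x axis, Ighe left out) in naive (blue) and DMM (orange) libraries, with a line at each mean. Igha, Igkc, Jchain and Sdc1 do not overlap between groups, and Ighm, Cd79a and Rag1 do.

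Genes of the cells that make antibody were read from lists. Of 10 plasma cell genes, 3 were called higher and 1 lower, beside 7.75% and 5.92% of all genes with an adjusted p. Jchain, which links IgA and IgM units, stood at 819.6, 548.1, 774.9 and 669.0 normalised counts in naive and at 1767, 2923, 1544 and 2065 in DMM libraries, and rose by 1.56 on the log2 scale (SE 0.20, DESeq2 adjusted p = 5.6e-12). Sdc1, a proteoglycan on plasma cells and on other cells, and Prdm1, a transcription factor of plasma cells that other lineages also use, rose by 1.003 and 0.70 (DESeq2 adjusted p = 2.42e-11 and 0.00708). Tent5c, a poly(A) polymerase, fell by 0.83 (DESeq2 adjusted p = 0.00367). Mzb1 and Xbp1, which serve antibody secretion, changed by 0.46 and 0.13 (DESeq2 adjusted p = 0.241 and 0.407), and Tnfrsf17, a receptor of plasma cells, had at most 11.6 and no adjusted p. The list as a whole summed to between 426.9 and 601.7 CPM in naive and between 527.8 and 628.5 in DMM libraries. Tent5c weighed most in this sum, with a mean of 4615 normalised counts in the naive and 2592 in the DMM group. Jchain had means of 703 and 2075. The sum therefore says little on the other genes of the list.

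No mature or early B cell gene was called. DESeq2 called 0 of 13 mature B cell genes, with a median log2 fold change of 0.42, and 0 of 8 early B cell genes, with a median of 0.54. In each of these lists 2 genes had an unadjusted p under 0.05, and edgeR and limma-voom called 0. Arpp21 of the early list had an adjusted p of 0.0216 by DESeq2 with a change of 0.54, under 1.5-fold. Summed mature B cell genes were 414.2 and 597.6 CPM in DMM 1 and DMM 2, 250.2 and 220.6 in DMM 3 and DMM 4, and 190.5 to 300.3 in naive libraries, so that DMM 1 and DMM 2 were above and DMM 3 and DMM 4 within the naive range. Summed early B cell genes were 228.0, 212.6, 116.7 and 117.8 in DMM 1 to 4, and 69.9 to 121.8 in naive libraries. None of the listed genes was at 0 in all libraries. The part of these cell markers in the variable gene values was not tested.

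None of the 3 factors of the octamer list was called by DESeq2, edgeR or limma-voom, and 0 had an unadjusted p under 0.05. Pou2f1 and Pou2f2, which bind a conserved octamer before variable genes, and their coactivator Pou2af1 changed by -0.03, 0.14 and 0.30 with DESeq2 adjusted p of 0.866, 0.647 and 0.513. Ung, a uracil-DNA glycosylase of base excision repair, fell by 0.68 (DESeq2 adjusted p = 0.0242; called in 4 of 8 fits that left out a library). Rag1 and Rag2, the recombination enzymes, changed by 0.63 and 0.47 (DESeq2 adjusted p = 0.309 and 0.189). Of 10 T cell genes, 1 was called, a decrease of Cd3d (log2 fold change -0.88, DESeq2 adjusted p = 0.00915), and edgeR and limma-voom called 0. DESeq2 called 5.92% of all genes with an adjusted p lower.

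The count minimum of 10 cut through a continuous range. Just inside it were Igkv9-124, Igkv8-19 and Igkv6-20, with mean estimated counts of 10.1, 10.2 and 10.2, and just outside were Igkv2-109, Ighv1-58 and Ighv5-9-1 with 9.88, 9.82 and 9.65. Igkv8-19 shows how a gene passed through a single group, with 37.6, 20.1, 18.7 and 0 estimated counts in DMM 1 to 4 and 2, 0, 3.10 and 0 in naive 1 to 4. None of these 6 genes had an adjusted p. Of the 32 members with a mean count of 30 or more, 16 were called higher and 1 lower. Of the 56 members with under 50% of their words in other genes, 50 received an adjusted p, and 14 were called higher and 1 lower.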

How the data were processed

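Estimated counts per gene were deposited by the authors, who trimmed reads with Trimmomatic, pseudo-aligned them with Kallisto and summed transcripts with tximport. The build is uncertain, since the methods give GRCm38 but an Ensembl release made for GRCm39, and the labels list the human GRCh38. The labels name an NEB low input RNA kit and the methods a SMART-Seq kit, which was not resolved. Strand is not stated. Of the values, 39.2% were not whole, and they were rounded before testing. Replicates were single mice.

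Symbols, biotypes, coordinates and transcripts were taken by gene identifier from GENCODE vM21 (GRCm38), which named 48909 of 50462 identifiers, holding 86.6% of counts. The Wald test of DESeq2 (1.42.0, under R 4.3.3), which the study used, was run over all genes and 8 libraries without covariates, with Benjamini-Hochberg adjustment, default filters and unshrunken fold changes. edgeR version 4.0.16 and limma version 3.58.1 were alternatives. Of the 106 members, 17 had no adjusted p. The test scripts were checked on simulated data with 200 genes changed 2-fold, of which DESeq2 called 121 and edgeR 96. Of the unchanged genes they called 17 and 4. A gene that was not called may therefore still have changed.

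Named genes were the 6 heavy and 6 kappa members of highest level per kilobase, all lambda members, up to 10 calls of smallest adjusted p in each direction, up to 6 members with over 50% of counts in 1 library, 3 genes on each side of the count minimum, and constant and octamer genes. The members and lists were chosen with earlier results of these data known. Of the listed genes, 2 are not reported here by name. Shared words are 31-base words of a transcript found in any other gene.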

Additional observations from a re-analysis of the deposited data

Results flagged for a closer look

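Dixon's test for 1 value far from the others, run on 122 groups of 4 library values (class measures and normalised counts of named genes), marked 8. Chance marks about 5% of groups that were not chosen by their values. Ighv1-80, Igkv6-13, Ighv2-3 and Igkv4-55 were named for a high share of their counts in 1 library, so their marks describe that choice and have no chance level. In DMM 1, Ighv1-80 stood at 345.0 (42.0 to 86.0 in the other DMM libraries), Igkv12-46 at 107.8 (44.5 to 53.2) and Igkv4-55 at 58.1 (7.41 to 10.7), while Ighg2c was low at 330.1 (464.4 to 480.8). In naive 1, Ighv2-3 stood at 64.2 (0 to 5.32 in the other naive libraries) and Ighv1-9 at 29.0 (21.4 to 22.6). Ighv1-55 stood at 105.1 in naive 2 (40.7 to 48.4), and Igkv6-13 at 168.9 in naive 4 (1.07 to 3.52). The calls of Igkv12-46 and Ighv1-9 were kept when any library was left out.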

How the results depend on the processing

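The members called higher, 33 in all, came to 21 under edgeR and 21 under limma-voom, 4 against a 1.5-fold null (with 0 lower), and 13 to 30 when a library was left out. Over all genes, 94 of 19745 were called in either direction against the 1.5-fold null, compared with 2429 of 17760 in the full fit. Higher calls over all 18445 genes tested numbered 1271 under edgeR and 1319 under limma-voom. In the fits without a library, 35 to 88 members had an adjusted p, compared with 89 in the full fit. With fewer members, the number called higher was 16 of 32 at a mean count of 30 or more and 14 of 56 with under 50% shared words. Of these 56, 50 had an adjusted p. Both groups carry replicate numbers 1 to 4, yet libraries of the same number did not move together. Their deviations from the group means over 17760 genes correlated at 0.01, 0.11, -0.18 and 0.10. With the replicate block 20 members were called higher and 1 lower, and 1132 of all 15783 genes with an adjusted p were called higher. The sign of some uncalled values turned. Igkv1-117 reversed under edgeR (-0.0072), Igkv6-13 under limma-voom (0.34) and the block (0.66), Ighv2-3 likewise (0.18 and 0.54), Ighv5-9-1 under the block (-0.451) and Pou2f1 under total counts (0.12). Leaving out a library gave log2 fold changes of -0.088 to 0.69 for Ighv1-64, -0.48 to 0.73 for Igkv1-117, -0.90 to 0.084 for Igkv15-103, -0.32 to 0.13 for Iglv2, -2.56 to 2.01 for Igkv6-13, -1.05 to 2.16 for Ighv2-3, -0.056 to 2.49 for Igkv6-20, -1.12 to 0.40 for Ighv5-9-1, -0.024 to 0.97 for Ighg1, -0.25 to 0.68 for Ighg2c, -1.78 to 0.48 for Ighe, -0.079 to 0.0085 for Pou2f1 and -0.011 to 0.47 for Pou2af1. At a mean count of 30 or more, kappa members held 80.1% of light chain counts in naive and 87.1% in DMM libraries (92.0% in DMM with no minimum), the leading member held 18.9% and 19.2% of heavy, 19.9% and 18.3% of kappa, and 64.0% and 67.4% of lambda counts, and the effective numbers were 12.2 and 12.999 for heavy and 10.7 and 11.8 for kappa members. With no minimum these numbers were 44.4 and 49.7, and 39.3 and 45.2, as more genes enter. Apart from these, the cause of the changes was not tested. Of other single gene values, 371 kept their direction and side of the threshold, 17 lost it and 6 gained it, besides the fits without a library. Settings that changed only a filter or a threshold kept the fold changes of the full fit. Direction could not change in them, so the 371 are no measure of robust direction.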

Other observations

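Variable genes outside the members gave lower values. Of the 112 that are no pseudogenes and had a mean count under 10, 69 had a log2 fold change above 0 and 31 below, with a median of 0.69, and none had an adjusted p. Of the 130 variable pseudogenes, none reached a mean count of 10, with a highest mean of 7.10. No count at all was found in any library for 9 heavy and 3 kappa genes that are not annotated as pseudogenes.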
